A study of Arabidopsis thaliana with 24 samples.

Results

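The comparison described here set 6 libraries of Arabidopsis thaliana seedlings that carry the vq10 allele against 6 that do not, all kept under low oxygen. It used 12 of the 24 libraries of the series. The carriers were 3 libraries of the mutant vq10 and 3 of the double mutant vq1vq10, and the non-carriers were 3 libraries of the wild type Col-0 (Col below) and 3 of the mutant vq1, so that each side held one background without and one with the vq1 label. The series title calls the mutants hypermorphic, and how the alleles were made is not given in the sources used here. Whole seedlings were grown on sucrose-containing medium in long days at 21% oxygen for 14 days. On day 15 those of the 12 libraries compared here were moved to 1% oxygen for 4 h in dim light. Seedlings of the other 12 libraries were kept at 21% oxygen for the same time in the same dim light. Those libraries served for the same comparison at 21% oxygen, for the difference between oxygen levels and for a fit of all 24 libraries. Each group had 3 biological replicates. The effect of the vq10 allele was fitted with the vq1 label as a covariate to 19532 of 23929 genes, the other 4397 having too few reads. Values are CPM (reads per 1000000 after scaling between libraries), changes are log2 of carriers over non-carriers with their standard error, and a gene was called at an adjusted p under 0.05 in the edgeR quasi-likelihood test. Because whole seedlings were measured, fewer cells of a type and less RNA per cell cannot be told apart.

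The hypoxic libraries held 21150025 to 22645178 reads each, and their 10 most abundant genes took 11.51 to 14.24% of them. In 2 of the 3 hypoxic vq10 libraries, replicates 2 and 3, genes beside VQ10 that were nearly silent in the other 4 carriers kept 6.66 and 8.0% of the non-carrier level, so counts are also given without these libraries. Seed storage transcripts varied with the replicate: CRA1, which encodes a seed storage globulin, had 14, 165, 331 and 63 reads in replicate 2 of Col, vq1, vq10 and vq1vq10 and 1 to 19 in the other 8 libraries, and CRU3, another seed storage gene, had 159 of its 167 carrier reads in replicate 2 of vq10. The part of the seed storage difference in the results below was not tested.

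VQ proteins are small plant proteins named for a short valine-glutamine motif, and many of them bind WRKY transcription factors, which recognise the W-box in promoters. Glucosinolates are sulfur-rich defence compounds of the cabbage order. The aliphatic ones are made from methionine: its side chain is lengthened in the chloroplast, the amino acid is turned into the core structure by cytochromes P450, a lyase, a glucosyltransferase and sulfotransferases, and the side chain is then oxidised, with the R2R3 MYB factors MYB28, MYB29 and MYB76 activating the genes. VQ10 and 5 glucosinolate genes are shown by the 250 bases before their annotated start, 5′ to 3′, because these genes were higher in the carriers together. The sequences are from the TAIR10.1 genome of RefSeq, and capitals mark a G-box (CACGTG). VQ10 is at chr1:29502256-29502505 on the plus strand, CYP79F1 at chr1:5608432-5608681 on the plus strand, CYP83A1 at chr4:7992430-7992679 on the minus strand, BCAT4 at chr3:6849583-6849832 on the minus strand, MYB28 at chr5:24691188-24691437 on the minus strand and MYB29 at chr5:2446419-2446668 on the plus strand.
VQ10: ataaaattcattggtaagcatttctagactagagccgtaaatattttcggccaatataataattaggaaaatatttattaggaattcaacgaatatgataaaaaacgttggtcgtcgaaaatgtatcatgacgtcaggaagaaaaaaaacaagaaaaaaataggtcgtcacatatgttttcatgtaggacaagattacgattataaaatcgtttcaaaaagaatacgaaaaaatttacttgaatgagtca
CYP79F1: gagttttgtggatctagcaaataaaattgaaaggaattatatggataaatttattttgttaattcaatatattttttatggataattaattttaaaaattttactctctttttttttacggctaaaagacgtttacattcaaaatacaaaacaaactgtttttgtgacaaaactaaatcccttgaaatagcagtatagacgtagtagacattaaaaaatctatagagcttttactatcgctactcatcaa
CYP83A1: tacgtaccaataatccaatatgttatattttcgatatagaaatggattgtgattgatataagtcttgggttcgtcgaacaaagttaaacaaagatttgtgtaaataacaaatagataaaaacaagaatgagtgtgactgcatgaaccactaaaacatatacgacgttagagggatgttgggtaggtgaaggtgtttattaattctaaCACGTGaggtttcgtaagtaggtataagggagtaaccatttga
BCAT4: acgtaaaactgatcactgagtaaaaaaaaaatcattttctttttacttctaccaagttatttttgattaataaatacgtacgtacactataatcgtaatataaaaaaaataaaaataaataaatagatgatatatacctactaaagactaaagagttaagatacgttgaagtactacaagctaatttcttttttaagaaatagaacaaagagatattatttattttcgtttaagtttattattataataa
MYB28: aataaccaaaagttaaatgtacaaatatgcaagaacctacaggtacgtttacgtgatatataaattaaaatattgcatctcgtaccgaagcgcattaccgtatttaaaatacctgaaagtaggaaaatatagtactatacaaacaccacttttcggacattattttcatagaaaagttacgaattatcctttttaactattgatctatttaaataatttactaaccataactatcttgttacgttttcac
MYB29: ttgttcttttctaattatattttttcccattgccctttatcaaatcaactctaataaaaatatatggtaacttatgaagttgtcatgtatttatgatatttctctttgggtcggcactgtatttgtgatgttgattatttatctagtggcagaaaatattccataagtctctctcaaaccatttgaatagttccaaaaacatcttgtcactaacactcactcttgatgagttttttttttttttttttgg
None of the 6 windows held the W-box core TTGAC or the evening element AAAATATCT on either strand, and the window of CYP83A1 held 1 G-box. Over windows of the same length, the W-box core was present in 45.3% of all genes tested and in 2 of the 11 called genes of the aliphatic glucosinolate list, the G-box in 7.43% and in 1 of 11, and the evening element in 2.52% and in 0 of 11. Among all 47 genes called higher the shares were 44.7%, 10.6% and 4.26%.

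Across the genome 63 genes were called, 0.323% of those tested. Of these, 47 were higher in the carriers (0.241%) and 16 were lower (0.0819%), and 17 of the former and 11 of the latter differed at least 2-fold. The median change over all genes was -0.001. Without overlap between the 6 carriers and the 6 non-carriers lay 50 of the 63 called genes, against 0.993% of all genes tested. The calls and the overlap were read in the same libraries, so this count describes the called genes and is not independent support. At an unadjusted p under 0.05 there were 2473 genes (12.7%). Some of the called genes fell into groups, which were in part defined after the data were seen. Of the 47 higher genes 19 belonged to glucosinolate synthesis or sulfate activation, and 7 of the 16 lower genes lay in a row beside VQ10. VQ10 itself was 1 more, and the remaining 36, most of the 63, fell into none of these groups. In all 12 fits that left out 1 library 27 of the 63 genes were called, 18 higher and 9 lower, among them 10 of the aliphatic list. In a fit of all 24 libraries 27 of the 63 calls were lost. The counts depended on single libraries. The higher genes numbered 20 and 30 without replicates 1 and 2 of Col, 25, 25 and 24 without replicates 1, 2 and 3 of vq1, 73, 23 and 25 without those of vq10, and 26, 23 and 30 without those of vq1vq10, while the lower genes numbered 28 without replicate 3 of Col, 9 without replicate 2 of vq1, 67 without replicate 1 of vq10 and 10 without replicate 3 of vq1vq10. Without replicates 2 and 3 of vq10 together, which leaves 1 library of that group, 14 genes were higher and 6 lower.

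VQ10 (AT1G78410, TAIR10.1 chromosome 1, 29502506 to 29503938) was the gene that checks the label. Its reads were 4, 2 and 8 in Col and 10, 17 and 7 in vq1, while vq10 had 31, 22 and 29 and vq1vq10 had 34, 23 and 27. Every carrier was above every non-carrier, though all counts were small. The change was 1.76 ± 0.34 (adjusted p = 0.0385 in edgeR), and it stayed past the threshold in 2 of the 12 fits that left out 1 library, with a highest adjusted p of 0.109 without replicate 1 of Col. Under normoxia, in other libraries with the same genotype labels, the change was 2.57 (adjusted p = 0.000356 in edgeR). VQ1 (AT1G17147), its relative named in the other label, had a change of 0.03 ± 0.17 (adjusted p = 0.961).

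Directly beside VQ10 a row of genes was almost silent in the carriers. It began 593 bases after the annotated end of VQ10 and ran over 26.1 kb, from AT1G78420 to CYP708A3 (chromosome 1, 29504532 to 29530669), and held 9 genes of the files, of which 7 were tested and all 7 were lower. AT1G78460, which encodes a SOUL heme-binding family protein, went from 108 to 141 CPM in the non-carriers to 0.0419 to 8.72 in the carriers (-5.76 ± 0.64, adjusted p = 0.000415 in edgeR). The RING/U-box gene AT1G78420 went from 29.2 to 34.7 CPM to 0 to 2.19 (-5.53 ± 0.50), and the cytochrome P450 gene CYP708A3 from 14.0 to 25.4 CPM to 0.516 to 3.12 (-4.02 ± 0.29, adjusted p = 1.12e-05). These 3 genes did not overlap between carriers and non-carriers. AT1G78450, a neighbour of AT1G78460 from the same SOUL family, changed by -5.42, RIP4, a gene for a protein partner of ROP GTPases, by -4.59 and AT1G78476 by -3.89. In the carriers AT1G78450 and RIP4 had reads only in replicates 2 and 3 of vq10. AT1G78476 had 67 reads in the non-carriers and 4 in the carriers. It was called in 4 of the 12 fits that left out 1 library. ATGA2OX1, a gene for a gibberellin-inactivating oxidase, had 49 reads in the non-carriers and 0 in the carriers, at least 16.9-fold lower when the carriers are set to a floor of 3 reads in all. AT1G78480, below the filter and overlapping AT1G78476 in position, had 40 reads in the non-carriers and 1 in the carriers. Relative to library size this is 41.5 times higher in the non-carriers (95% counting interval 7.03 to 1680).

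**Figure D1:**
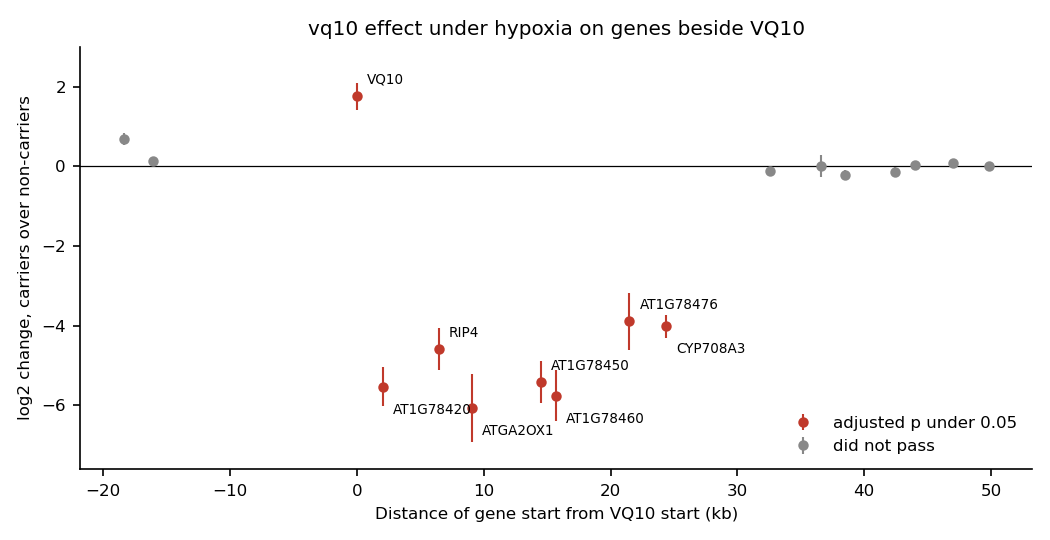
Each point is a tested gene, placed by the distance of its start from that of VQ10 (kb, horizontal axis) and by its log2 change between carriers and non-carriers under hypoxia (vertical axis); bars are standard errors. VQ10 is at 1.76 and the 7 lower genes lie together on one side of it, while the nearest tested genes beyond them did not pass; the point of ATGA2OX1, without carrier reads, depends on the model's prior count.

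The genes around this row did not pass the test. On the far side of VQ10 the glutathione transferase genes GSTU20 and GSTU19 changed by 0.69 ± 0.15 (adjusted p = 0.0848 in edgeR) and 0.14, and after the row SPS1, which encodes a solanesyl diphosphate synthase, had a change of -0.11 ± 0.08. Within 1 Mb of VQ10 431 genes were tested, and apart from VQ10 and the row 1 was called, AT1G76520, an auxin efflux carrier family gene, at 0.43 ± 0.09, which was called in 2 of the 12 fits that left out 1 library. Elsewhere in the genome 45 genes were higher and 9 lower. Summed over the 9 genes the row had 3477 to 4474 reads in the non-carriers. In the carriers the sum was 0.407% of the non-carrier mean in replicate 1 of vq10 and 0.464, 0.671 and 0.334% in vq1vq10, but 6.66 and 8.0% in replicates 2 and 3 of vq10, or 270 and 297 reads. These 2 libraries had reads in 6 of the 9 genes and the other 4 carriers in 2 or 3. In the normoxic carriers the same sum was 0.107 to 0.445% in 5 libraries and 14.4% in replicate 3 of vq10. Without replicates 2 and 3 of hypoxic vq10, 5 of the 7 genes were still called.

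The aliphatic glucosinolate genes were higher in the carriers. All 17 genes of the list were tested, 11 rose and 0 fell, and the other 6 had changes above 0 as well. The median change was 0.83 (range 0.18 to 1.67), beside -0.001 over all genes. The carriers did not overlap the non-carriers for 10 of the 11 called genes, which were called in these same libraries, and for 11 of the 17 in all. The members had been placed in this list with earlier results of these data in view, so that the count describes these libraries and is not independent evidence. Without replicates 2 and 3 of vq10 7 of the 17 were called, with MYB29 (adjusted p = 0.135 in edgeR) and SOT17 (0.0608) among those that no longer passed, and 5 in a fit of all 24 libraries.

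The regulators came first in the pathway. MYB29 was at 2.90, 1.37 and 1.86 CPM in Col and 1.68, 2.40 and 2.05 in vq1, while vq10 had 4.22, 4.82 and 5.02 and vq1vq10 had 3.73, 3.72 and 4.82, and every carrier was above every non-carrier (1.1 ± 0.17, adjusted p = 0.00839 in edgeR). MYB28 ranged from 16.6 to 22.2 CPM (median 21.5) in the non-carriers and from 26.0 to 32.1 (median 28.4) in the carriers, again without overlap (0.49 ± 0.08, adjusted p = 0.00881). MYB76, with less than 1.2 CPM in every library, had a change of 0.92 ± 0.47 that did not pass (adjusted p = 0.434). The 3 MYC partners of these factors, basic helix-loop-helix proteins known from jasmonate signalling, had changes of 0.11 to 0.22, and 0 of 3 was called.

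**Figure D2:**
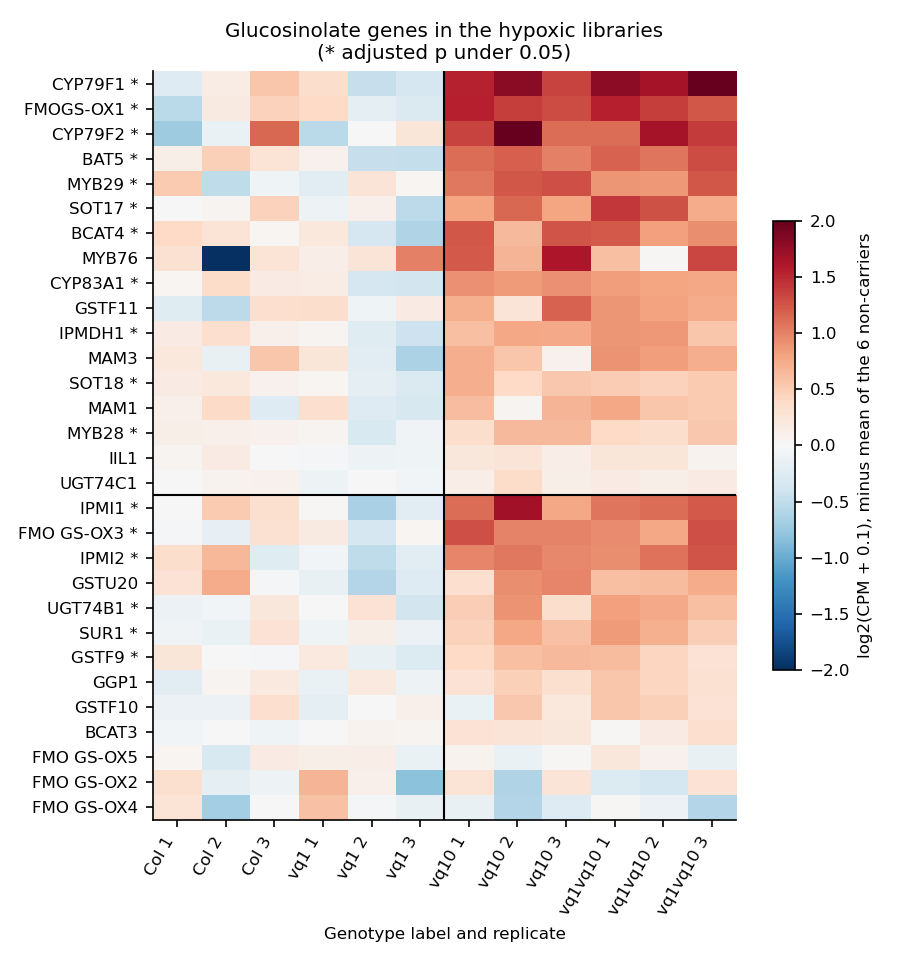
Rows are the 17 genes of the aliphatic list (above the line) and 13 further glucosinolate genes, columns are the 12 hypoxic libraries, and colour is log2(CPM + 0.1) minus the mean of the 6 non-carriers; stars mark adjusted p under 0.05. The 6 carrier columns on the right are above the non-carrier mean for CYP79F1, whose change was 1.67, and for the other starred genes.

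Chain elongation genes followed. BCAT4, the aminotransferase that starts the lengthening of methionine, ranged from 8.67 to 17.62 CPM (median 14.5) in the non-carriers and from 20.9 to 32.0 (median 28.2) in the carriers (1.02 ± 0.15, adjusted p = 0.00516 in edgeR). BAT5, the chloroplast transporter of the keto acids, was at 3.34, 4.34 and 3.73 CPM in Col and 3.27, 2.21 and 2.19 in vq1, while vq10 had 6.77, 7.18 and 6.28 and vq1vq10 had 7.13, 6.62 and 7.75 (1.15 ± 0.14, adjusted p = 0.00167). For both genes the groups did not overlap. IPMDH1, the isopropylmalate dehydrogenase of the cycle, rose by 0.74 ± 0.11, whereas the condensing enzymes MAM1 (0.52 ± 0.14, adjusted p = 0.152) and MAM3 (0.62 ± 0.18, adjusted p = 0.169) and the isomerase subunit gene IIL1 (0.20 ± 0.06, adjusted p = 0.194) did not pass. MAM1 and MAM3 lie next to each other on chromosome 5 and are similar in sequence, so how reads were divided between them is uncertain. Beyond the list, in genes added after the data were seen, the small isomerase subunit genes IPMI1 (1.18 ± 0.17) and IPMI2 (1.02 ± 0.15) rose.

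Genes of the core structure held the largest change of the list. CYP79F1, the cytochrome P450 that turns elongated methionine into an aldoxime, was at 4.61, 6.13 and 8.18 CPM in Col and 7.06, 4.00 and 4.33 in vq1, while vq10 had 16.2, 19.5 and 14.2 and vq1vq10 had 19.4, 17.7 and 22.7. The lowest carrier was above the highest non-carrier (1.67 ± 0.17, adjusted p = 0.000187 in edgeR), and the gene was called in all 12 fits that left out 1 library, though not in the fit of all 24 libraries (adjusted p = 0.0733). Its neighbour CYP79F2 (1.37 ± 0.26, adjusted p = 0.0412 in edgeR) overlapped between the groups and was called in 3 of those 12 fits. CYP79F1 and CYP79F2 are similar in sequence, so how reads were divided between them is uncertain. CYP83A1, which converts the aldoxime further, ranged from 26.4 to 44.1 CPM in the non-carriers and from 58.7 to 64.4 in the carriers (0.83 ± 0.09, adjusted p = 0.000415).

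The steps after the P450s also moved. SUR1, the carbon-sulfur lyase, rose by 0.64 ± 0.09, the glucosyltransferase gene UGT74B1 by 0.65 ± 0.12 and the glutathione transferase gene GSTF9 by 0.50 ± 0.09, and UGT74B1 was called in 6 and GSTF9 in 5 of the 12 fits that left out 1 library. SUR1 and UGT74B1 serve indole glucosinolates too. UGT74C1 (0.18 ± 0.06, adjusted p = 0.222 in edgeR) and GSTF11 (0.83 ± 0.23, adjusted p = 0.167) did not pass. SOT17, a sulfotransferase of the last core step, ranged from 3.82 to 7.67 CPM in the non-carriers and from 9.38 to 15.0 in the carriers (1.04 ± 0.16, adjusted p = 0.0091), and SOT18 rose by 0.53 ± 0.08. Of the side-chain oxygenases, FMOGS-OX1 ranged from 2.70 to 5.47 CPM in the non-carriers and from 9.51 to 11.8 in the carriers (1.38 ± 0.15, adjusted p = 0.000415) and FMO GS-OX3 rose by 1.08 ± 0.15, while FMO GS-OX2 (-0.10), FMO GS-OX4 (-0.31) and FMO GS-OX5 (0.02) did not pass. In all, 6 of the 13 added glucosinolate genes rose and 0 fell (median 0.50).

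**Figure D3:**
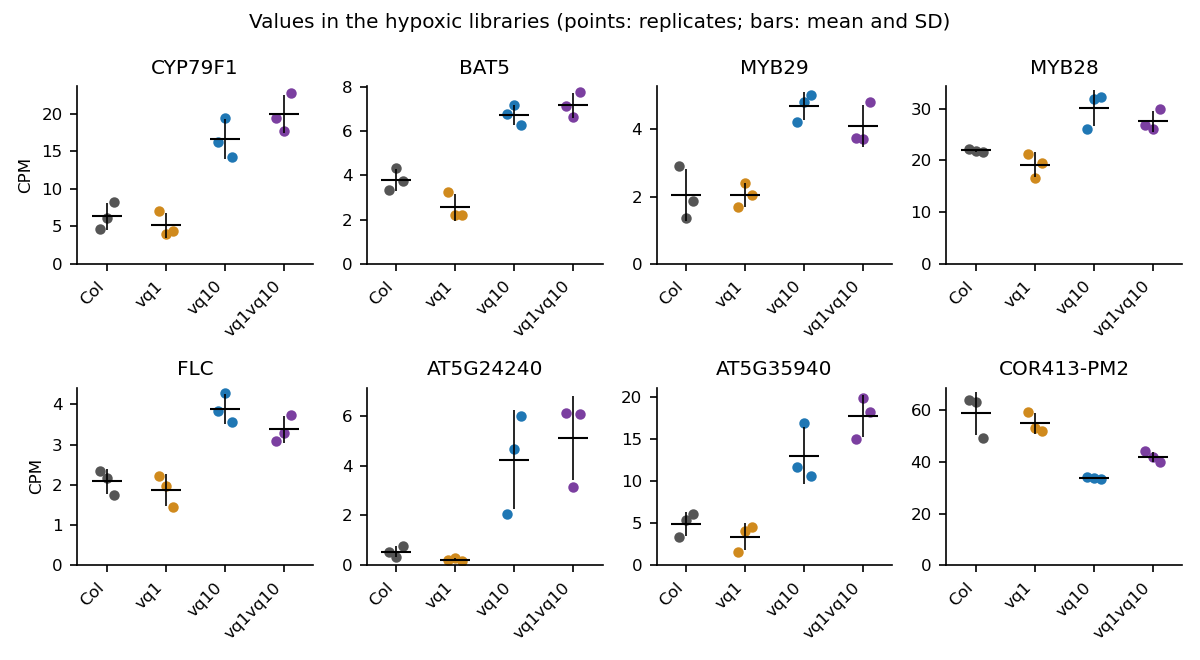
CPM in the 12 hypoxic libraries by genotype label for 4 glucosinolate genes (upper row) and 4 other called genes (lower row); points are replicates, bars are the mean and SD of 3. The carriers, vq10 and vq1vq10, lie above Col and vq1 without overlap except for COR413-PM2, where they lie below.

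Neighbouring pathways had few calls, beside 0.323% of all genes tested, and their difference from the aliphatic list was not tested. The indole glucosinolate and camalexin list, which uses tryptophan in place of methionine, had 0 of 14 genes called with a median of 0.29 (CYP83B1 0.68, adjusted p = 0.141 in edgeR; TSB1 0.14). Of 8 genes of glucosinolate transport and breakdown 0 were called (median 0.02). Of 17 tested genes of sulfate assimilation and sulfur deficiency, a list added after the data were seen, 2 rose and 0 fell, with a median of 0.30. They were APS1, the ATP sulfurylase that activates sulfate, which ranged from 191 to 204 CPM in the non-carriers and from 221 to 259 in the carriers (0.30 ± 0.05, adjusted p = 0.027), and APK1, the kinase that makes the sulfate donor of the sulfotransferases (0.43 ± 0.08, adjusted p = 0.0385). APS1 was called in 5 and APK1 in 3 of the 12 fits that left out 1 library, and APK1 was also lost with 4 group means and with all 24 libraries (highest adjusted p = 0.111). APR1, a reductase on the other branch, had a change of 1.04 ± 0.21 (adjusted p = 0.0519). AK3, an aspartate kinase at the head of the pathway to methionine, rose by 1.05 ± 0.19 with overlap between the groups and was called in 4 of those 12 fits.

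The other genes that rose had varied roles. AT5G24240, annotated as a phosphatidylinositol 4-kinase gamma-like protein, had the largest increase: it was at 0.540, 0.330 and 0.763 CPM in Col and 0.192, 0.282 and 0.186 in vq1, while vq10 had 2.06, 4.68 and 5.99 and vq1vq10 had 6.12, 3.16 and 6.07 (3.59 ± 0.36, adjusted p = 0.000165 in edgeR). AT5G35940, a mannose-binding lectin family gene, ranged from 1.58 to 6.06 CPM in the non-carriers and from 10.6 to 19.99 in the carriers (1.88 ± 0.24, adjusted p = 0.00193). Neither gene's groups overlapped. FLC, the MADS-box repressor of flowering, ranged from 1.45 to 2.35 CPM (median 2.07) in the non-carriers and from 3.10 to 4.28 (median 3.65) in the carriers (0.87 ± 0.14, adjusted p = 0.0111). It was the 1 member called of 9 in the marker list of floral organs and flowering time, and the call was lost without replicates 2 and 3 of vq10 (adjusted p = 0.122). DJ1F, a glutamine amidotransferase-like gene, ranged narrowly, from 6.92 to 7.80 CPM in the non-carriers and from 10.98 to 13.4 in the carriers (0.75 ± 0.07, adjusted p = 0.000165), and was called in all 12 fits that left out 1 library but not with all 24 libraries (adjusted p = 0.122).

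Transporter and hormone genes were among the rest. DTX1, a MATE efflux gene, rose by 1.11 ± 0.21, CB5-C, a cytochrome b5 gene, by 1.05 ± 0.21, the nitrate transporter gene NRT1.7 by 0.57 ± 0.10 and the oligopeptide transporter gene OPT3, which acts in iron distribution, by 0.54 ± 0.09. Of jasmonate synthesis, AOC1, an allene oxide cyclase gene, rose by 0.93 ± 0.19 (adjusted p = 0.0499 in edgeR) and OPCL1, a ligase gene outside the list, by 0.49 ± 0.10 (adjusted p = 0.0499), 1 of 24 tested genes of the jasmonate list being called. Most of these calls were lost in most of the fits that left out 1 library. When 1 library was left out DTX1 and AOC1 were called in 3 of 12 fits, CB5-C in 2, OPCL1 in 1, NRT1.7 in 8 and OPT3 in 7. With all 24 libraries DTX1 (adjusted p = 0.211), AOC1, CB5-C, NRT1.7 and OPT3 did not pass, and OPCL1 did not pass with 4 group means or without the covariate (highest adjusted p = 0.108).

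Outside the row beside VQ10, 9 genes were lower. COR413-PM2, a cold-regulated plasma membrane protein gene, was at 63.9, 63.4 and 49.2 CPM in Col and 59.5, 53.4 and 52.0 in vq1, while vq10 had 34.0, 33.8 and 33.3 and vq1vq10 had 44.1, 41.8 and 40.0 (-0.60 ± 0.09, adjusted p = 0.0057 in edgeR). All carriers were below all non-carriers, and without replicates 2 and 3 of vq10 the call was lost (-0.52, adjusted p = 0.135), as were those of NADP-ME1, AT3G61260 and PGPS2. NADP-ME1, a malic enzyme gene, fell by 1.02 ± 0.18 on the log2 scale, the remorin family gene AT3G61260 by 0.39 ± 0.07 and PGPS2, a phosphatidylglycerolphosphate synthase gene, by 0.37 ± 0.07. AT1G18830 (-1.13 ± 0.23), AT3G43850 (-0.63 ± 0.09) and AT3G62070 (-0.61 ± 0.09) were lower too, without overlap. PGAZAT, a polygalacturonase gene, changed by -1.82 ± 0.36 and its groups overlapped. When 1 library was left out NADP-ME1 and AT3G61260 were called in 5 of 12 fits and PGPS2, AT1G18830 and PGAZAT in 2. PRA1.F4 had 144 estimated reads in the non-carriers and 0 in the carriers (at least 49.8-fold lower), but its deposited values came in equal steps, it had 24 to 94 estimated reads in 3 normoxic libraries, 1 of them a carrier, and 0 in the other 9, and it overlaps AT3G13700, so the call is uncertain.

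**Figure D4:**
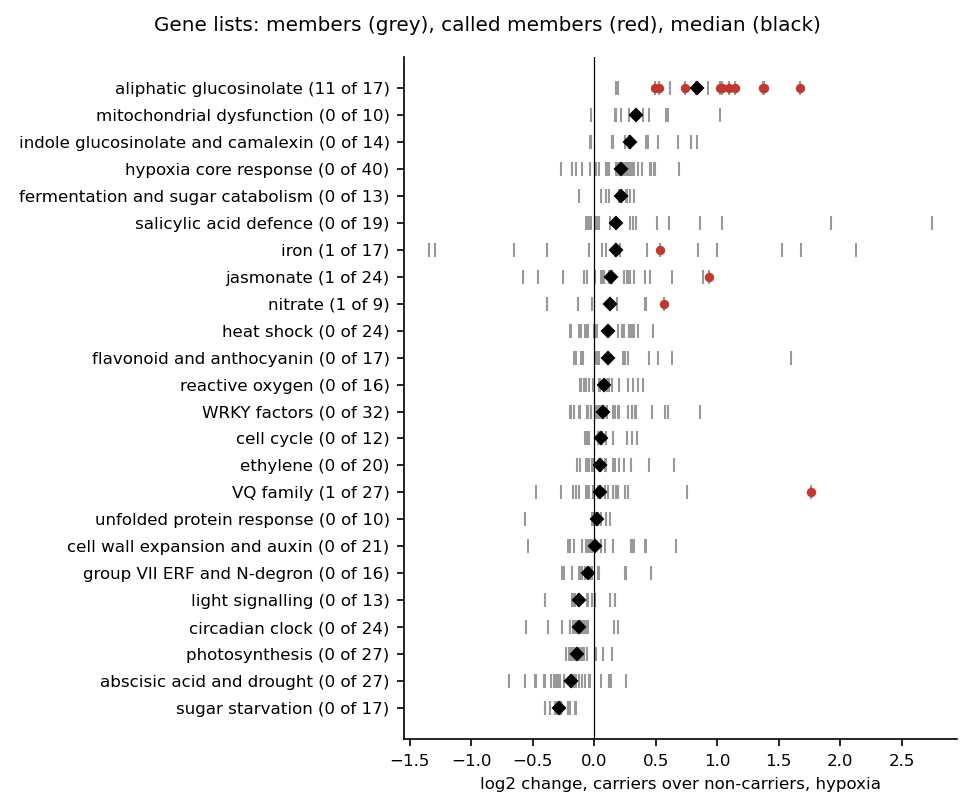
Each row is a gene list; grey ticks are the log2 changes of its tested members, red points are called members, black diamonds are medians, and the numbers in brackets are called of tested members. The aliphatic glucosinolate list has 11 called members and a median of 0.83, and 19 of the 24 lists have none in edgeR.

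Of the 24 pathway lists 19 had no called member in edgeR, where 0.323% of all genes tested were called. At that share a list without a call says little about its members. The count of lists also depended on the tool. DESeq2 called 3 hypoxia core, 2 fermentation, 1 group VII ERF and 1 indole glucosinolate gene higher and 1 sugar starvation and 1 light signalling gene lower. The hypoxia core response, the set of genes that low oxygen induces across tissues, had 0 of 40 members called with a median of 0.22. Of its changes 34 were above 0, beside 49.9% of all genes tested. ADH1, the alcohol dehydrogenase of fermentation, had a change of 0.26 ± 0.10 (adjusted p = 0.305 in edgeR), and fermentation and sugar catabolism as a whole had 0 of 13 (median 0.22). Of the 17 sugar starvation genes 0 were called, though all 17 changes were below 0 (median -0.29), among them ASN1, an asparagine synthase gene (-0.40 ± 0.09, adjusted p = 0.0915), and DIN10 (-0.27). The lists of the circadian clock (0 of 24, median -0.12), photosynthesis (0 of 27, -0.14), abscisic acid and drought (0 of 27, -0.19), salicylic acid defence (0 of 19, 0.18), WRKY factors (0 of 32, 0.07) and oxygen-sensing group VII ERF and N-degron genes (0 of 16, -0.05) had none called either. Among the other VQ family genes none was called besides VQ10, 1 of 27. Of the 4 marker lists without FLC 0 members were called: 0 of 8 root hair and root, 0 of 8 stomatal lineage, 0 of 5 seed storage and 0 of 5 senescence markers. DESeq2 called 1 seed storage marker lower. The summed seed storage level was 1.26 to 12.04 CPM in the non-carriers and 0.877 to 25.9 in the carriers.

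The effect was also read in each background, as contrasts within the 12-library fit, so that both share one estimate of the spread. The vq10 mutant against Col gave 16 called genes (0.0819%), 7 higher (0.0358%) and 9 lower (0.0461%), and vq1vq10 against vq1 gave 29 (0.148%), 22 higher (0.113%) and 7 lower (0.0358%). Fitted to the compared libraries alone, the first comparison called 1 higher and 5 lower and the second 71 higher and 45 lower. In the shared fit 10 genes were called in both backgrounds with the same sign, 62.5% of the first list and 34.5% of the second, and outside VQ10 and the row 5 genes were, 45.5 and 20.8%. Of the 29 genes called in vq1vq10 against vq1, 6 had the opposite sign in vq10 against Col, among them AT1G75945 (-6.86 and 2.06) and AT1G33050 (0.68 and -0.19), and of the 16 called in vq10 against Col 1 had the opposite sign in the other background. Over all genes tested 61.1% had the same sign in both. In the aliphatic list the median was 0.73 in vq10 against Col, with 2 of 17 called, and 0.97 in vq1vq10 against vq1, with 8 of 17 called. For CYP79F1 the changes were 1.39 and 1.96, for BAT5 0.83 and 1.49 and for MYB29 1.2 and 1.00.

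**Figure D5:**
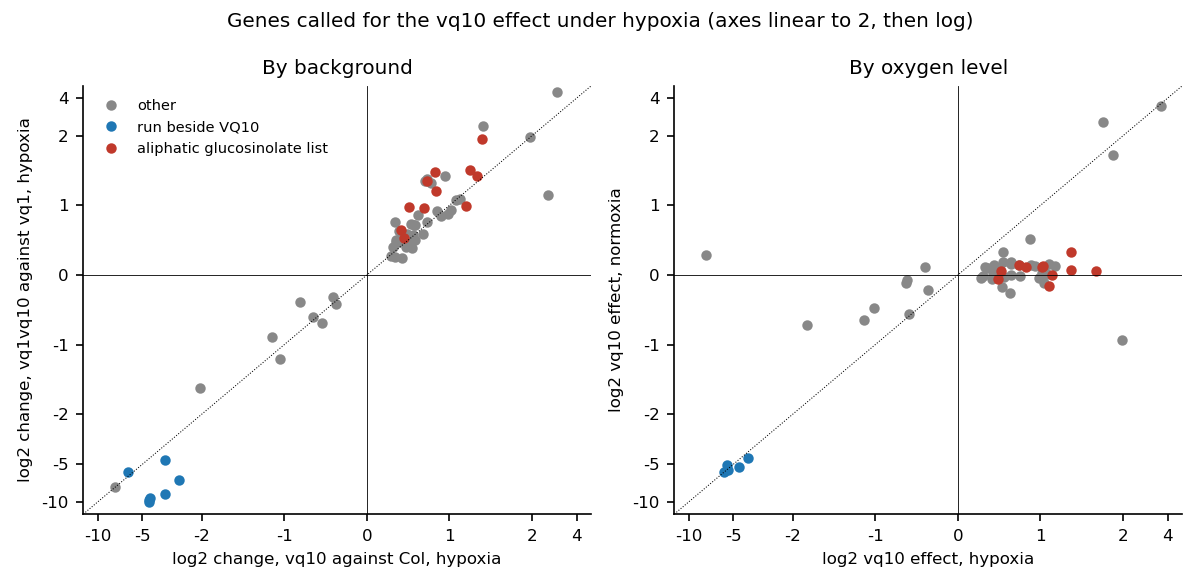
Points are the 63 genes called under hypoxia (61 of them tested in normoxia). Left, the log2 change of vq10 against Col (horizontal) and of vq1vq10 against vq1 (vertical); right, the vq10 effect under hypoxia (horizontal) and normoxia (vertical). Axes are linear up to 2 and logarithmic beyond, and dotted lines mark equal values; on the right the row beside VQ10 lies near the line and the aliphatic glucosinolate genes lie near 0 in normoxia.

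The difference between the backgrounds was tested directly, and 3 genes were called for it (0.0154%), none of them among the 63. MRD1, a gene named for its fall in the methionine-overaccumulating mutant mto1, was at 18.6, 18.5 and 16.2 CPM in Col and at or below 0.713 in the other 9 libraries. AT3G56210, an ARM repeat gene, was at 22.2 to 24.5 CPM in Col and at 49.1 to 58.3 in the other 9 libraries. In both cases Col stood apart from all 3 mutants. AT1G75945 was at 5.28, 5.32 and 6.29 CPM in vq1 and at or below 1.60 in the other 9 libraries.

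Under normoxia the same comparison called 12 of 19765 genes (0.0607%), 3 higher (0.0152%) and 9 lower (0.0455%). Of the genes tested in both conditions 9 were called in both, with the same sign, which is 14.8% of the hypoxic and 81.8% of the normoxic calls. They included VQ10, 5 genes of the row, AT5G24240 (3.44), AT5G35940 (1.73, adjusted p = 0.0155 in edgeR) and COR413-PM2 (-0.56, adjusted p = 0.00264). Of the 61 genes called under hypoxia and tested in normoxia 44 had the same sign there, beside 48.5% of all genes. Without VQ10 and the row it was 38 of 55. In these the higher genes had a median change of 0.739 under hypoxia and 0.065 in normoxia, and the lower genes -0.628 and -0.208.

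The aliphatic list had 0 of 17 genes called in normoxia and a median of 0.06, with changes from -0.52 to 0.35. The mean log2(CPM + 0.1) of its 17 genes under hypoxia was 3.30 ± 0.15 (SD, n = 3) in Col and 3.14 ± 0.14 in vq1, while vq10 had 4.08 ± 0.02 and vq1vq10 had 4.08 ± 0.05. Under normoxia it was 4.44 ± 0.39, 3.64 ± 0.46, 4.11 ± 0.31 and 4.14 ± 0.48, so that the spread within groups was wider and the groups overlapped. There the mean was lower in vq10 than in Col but higher in vq1vq10 than in vq1, and the normoxic median change averages both backgrounds. Whether the backgrounds differ in normoxia was not tested. Whether the effect differs between the oxygen levels was tested in all 24 libraries. No gene was called by edgeR (0 of 20110; 1725 or 8.58% at an unadjusted p under 0.05, smallest adjusted p 0.482), and DESeq2 called 1. For the 11 called aliphatic genes the difference in effect, hypoxia minus normoxia, was 0.47 to 1.60 (adjusted p of 0.482 to 0.596 in edgeR). An unadjusted p under 0.05 was found for 10 of these 11, and for 34 of all 47 genes called higher. All of them were picked by calls in the hypoxic libraries, which also enter this difference, so these counts are not independent support. By adjusted p a larger effect under hypoxia was not shown for any single aliphatic gene.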

How the data were processed

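RNA-seq of 24 seedling libraries was used, 12 of them hypoxic. The submitters' processing notes list TAIR10, HISAT2 2.0.4 and DESeq2 with no roles; how reads were counted, by strand or when shared between genes, is not given there. The deposited read_count column holds expected counts: 525 to 581 values per library are not whole, and these were rounded. The deposited TPM and FPKM values were not used. All 23929 genes matched the TAIR10.1 annotation, which gave positions.

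The main fit was edgeR 4.0.16 (R 4.3.3): quasi-likelihood test, TMM factors, filterByExpr, Benjamini-Hochberg over all genes, vq1 label as covariate. Common dispersion was 0.0182. Backgrounds were contrasts of group means. The members, gene lists and tests were chosen with earlier results of these data known. Genes named were VQ10 and VQ1, called genes with log2 CPM of at least 1 and no overlap between carriers and non-carriers (the largest changes in each direction and smallest p), neighbours of VQ10, members of each list and the smallest interaction p. All other named genes, and 4 added lists (further glucosinolate synthesis, transport and breakdown, MYC partners, sulfate), were picked with their values in view. Alternatives were RLE factors, no filter, DESeq2 1.42.0, a replicate block, leaving out libraries, 4 group means, no covariate, all 24 libraries and the genome without 1 Mb around VQ10. Intervals and floors cover counting error only. The code was tested on simulated data.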

Additional observations from a re-analysis of the deposited data

Results flagged for a closer look

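In 3 genes the vq10 effect under hypoxia differed between the backgrounds without and with the vq1 label, by edgeR's test of that difference with Benjamini-Hochberg adjustment over all genes. The difference, as the log2 change of vq1vq10 against vq1 minus that of vq10 against Col, was -8.92 for AT1G75945 (adjusted p = 0.00443), which was high in the 3 vq1 libraries alone. It was 8.18 for MRD1 (adjusted p = 0.00181) and -1.22 for AT3G56210 (adjusted p = 0.00181), whose Col libraries stood apart from the 9 mutant libraries.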

How the results depend on the processing

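Among the named genes no called change reversed under any alternative run. For the vq10 effect under hypoxia (47 higher, 16 lower), DESeq2 called 176 and 128, the replicate block 94 and 46, and the fits that left out 1 library 20 to 73 and 9 to 67. Without the genes within 1 Mb of VQ10 9 lower genes were left, by construction. Without both vq10 libraries that kept reads beside VQ10, an alternative chosen after seeing the data, 14 and 6 were called, with 7 of the aliphatic list; the all-24-library fit called 5 of that list, leaving out 1 library 10 to 11. The genes of the row numbered 5 to 7 when 1 library was left out. For vq10 against Col, DESeq2 called 28 and 19, the compared libraries alone 1 and 5, the fit without both libraries 2 higher, and leaving out 1 library 3 to 10 and 7 to 10. For vq1vq10 against vq1, DESeq2 called 80 and 48, the compared libraries alone 71 and 45, the replicate block 34 and 22, no filter 11 lower, and leaving out 1 library 11 to 29 and 7 to 21. For the difference between backgrounds DESeq2 called 12 and 9, and leaving out 1 library 1 to 2 and 2 to 4. Under normoxia DESeq2 called 6 and 17, no filter 5 higher, group means 8 higher, 24 libraries 10 higher, the replicate block 15 lower, the genome without 1 Mb around VQ10 4 lower, and leaving out 1 library 2 to 5 and 7 to 16. For the oxygen difference DESeq2 called 1 lower and the replicate block 1 higher, against 0 and 0, and leaving out 1 library gave 0 and 0. The cause of these shifts was not tested. Replicate numbers are not stated to pair libraries. Same-numbered hypoxic libraries of different groups had correlated deviations (r above 0.1) in 11 of 18 pairs, with a median r of 0.144. Of the differently numbered pairs 1 of 36 was above 0.1, with a median r of -0.0665. Genes at a few reads per library, such as VQ10, are limited by depth.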
